A study of Mus musculus with 18 samples.

Results

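The change between 6 h and 24 h after tape stripping was followed in epidermis without the aryl hydrocarbon receptor (AhR). The comparison used all 3 arrays of AhR-/- mice taken at 24 h (KO 24 h) and all 3 of AhR-/- mice taken at 6 h (KO 6 h), 6 of the 18 arrays in the series, and was tested over the 23521 rows of the deposited table that name a single gene. The KO mice carried the germline null allele of B6.129-AhRtm1Bra/J on a B6;129 background. Their AhR+/+ littermates (WT) gave 3 arrays at 24 h and 3 at 6 h, and each genotype also had 3 unstressed arrays at 0 h. All mice were female, their ages are not given in the labels, and shaved back skin was stressed by 5 rounds of stripping with adhesive film before RNA was taken from epidermal sheets. Every cell of the KO animals carries the null allele. A sheet holds immune cells and hair follicle parts beside keratinocytes, so no value belongs to keratinocytes alone.

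AhR is a transcription factor that is switched on by small ligands, and in keratinocytes its known targets include enzymes of xenobiotic metabolism. Tape stripping pulls off cornified layers. Epidermis answers such a loss in phases, with early stress and cytokine genes first and then with division of basal cells, renewed differentiation and the making of lipids that seal the barrier. Contrasting 24 h with 6 h sets the later phase of this response against the earlier one.

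The deposited values are logarithms, taken as base 2, from which the median of each row over the 18 arrays had been removed. They hold differences between arrays and no level, so whether a marker of keratinocytes or of another cell type was present at all could not be read from them. Array medians lay between -0.0187 and 0.0107 and array SDs between 0.134 and 0.222. The labels carry a 4-digit number whose meaning is not given. Replicates 2 and 3 of KO 6 h had numbers under 3000, while replicate 1 of KO 6 h and all 3 KO 24 h arrays had numbers of 3000 or more. In WT too, replicates 2 and 3 at 6 h had numbers under 3000, while replicate 1 and all 3 arrays at 24 h did not. The change measured against KO 6 h replicate 1 alone is therefore given beside the values of some leading genes. For genes without it below, it could be smaller, as for Ssb (-0.48 against -0.86), or larger, as for Klk5 (0.91 against 0.62). A change against 1 array has no error of its own. The series text gives 3 littermates of each genotype for a time, and each array was taken as 1 mouse. The p-values rest on 1 spread for each row within the groups of all 18 arrays, moderated over rows. It is not the spread of the 6 KO arrays compared alone.

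The deleted gene was examined first. Ahr stood at -0.59, -0.74 and -0.64 in the KO 24 h arrays, against -0.63, -0.65 and -0.77 in the KO 6 h arrays. In WT it stood at -0.01, 0.12 and 0.01 at 24 h, against 0.06, 0.58 and 0.64 at 6 h. Each of these 6 KO arrays lay below each of these 6 WT arrays, and the KO 24 h and KO 6 h arrays overlapped. The arrays labelled KO 0 h stood at -0.13, 0.04 and -0.02, above all KO arrays of the later times and overlapping WT 24 h, though below the WT 0 h arrays at 0.63, 0.16 and 0.07. The deleted gene therefore does not set the arrays labelled KO 0 h apart from WT, and every comparison with 0 h below rests on their labels. The KO change of 0.03 did not pass limma's moderated test (SE 0.143, adjusted p = 0.972). The array row may read parts of Ahr outside the deletion, so the check of the labels is partial.

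Of the 23521 rows, 292 passed between KO 24 h and KO 6 h at an adjusted p under 0.05 (limma, Benjamini-Hochberg), which is 1.24% of them. Of these, 147 rows rose at 24 h (0.625%) and 145 fell (0.616%). The genes that rose included 15 of mitosis, 5 of DNA replication, 3 protease inhibitors and the envelope gene Sprr2b. Those that fell included 5 of ribosome assembly and 3 chaperones. The 292 rows name 291 genes, and Tubb5, a beta tubulin, passed in both of its rows. The changes were moderate, with a median of 0.60 log2 among the rises and of -0.57 among the falls. The largest rise was 2.09 and the largest fall -1.07, and 13 rises and 2 falls were larger than 1 log2.

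**Figure D1:**
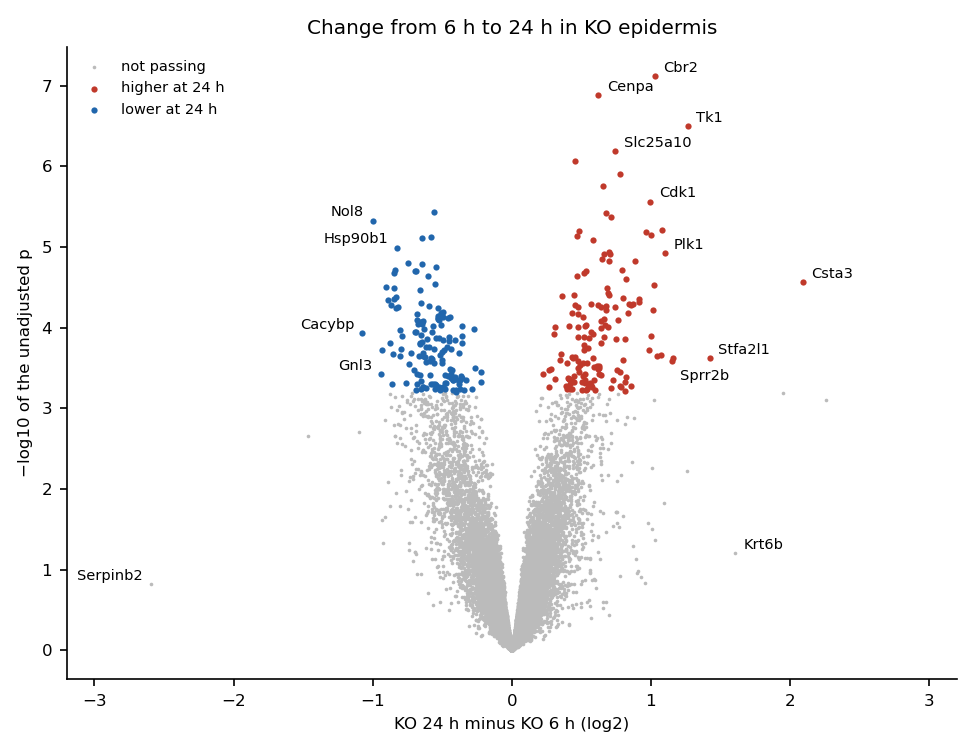
Each point is 1 of the 23521 rows, with the KO 24 h minus KO 6 h difference (log2) across and −log10 of limma's unadjusted p upwards; rows that passed are red where higher at 24 h and blue where lower. The 147 rises reach 2.09 (Csta3) and the 145 falls reach -1.07 (Cacybp), while Krt6b at 1.60 and Serpinb2 at -2.59 did not pass.

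In all 292 rows the 3 arrays of one time lay apart from the 3 of the other, which held for 17.0% of all rows and follows from the choice of rows with large differences. With replicate 1 as the only KO 6 h array, the medians were 0.53 for the rises and -0.48 for the falls, and their signs were fixed by the same choice. How many rows passed depended on single arrays. The count was 70 without KO 6 h replicate 2, 11 without KO 6 h replicate 3 and 842 without KO 6 h replicate 1. It was 44 without KO 24 h replicate 3 and 162 without KO 24 h replicate 1. With the class of the label number as a block, 36 rows passed.

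Set beside the arrays labelled KO 0 h, the medians of the 2 directions had opposite signs at each time. Among the 147 rises, 126 lay lower at 6 h than at 0 h (median -0.23) and 128 lay higher at 24 h than at 0 h (median 0.37). Among the 145 falls, 99 lay higher at 6 h than at 0 h (median 0.11) and 141 lay lower at 24 h than at 0 h (median -0.42). These counts reuse the arrays that chose the rows and describe them only.

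Genes of the second gap phase and mitosis gave the largest number of passing members of any list examined. The list names kinases, cyclins, kinetochore and condensin parts that dividing cells make shortly before and during mitosis. Of its 48 measured members, 15 rose (31.2%) and 0 fell. Its median change was 0.44 with 46 members above 0, against a median of 0.00 over all 22180 genes. In WT the median of the same members was 0.13. In bulk RNA a change in the number of dividing cells and a change in transcript per cell cannot be told apart.

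Cdk1, the kinase that drives entry into mitosis, stood at 0.90, 0.87 and 0.70 in KO 24 h arrays, against -0.18, -0.32 and -0.02 in KO 6 h arrays. The times did not overlap, and the arrays within each time lay close together. Cdk1 rose by 1.0 (SE 0.136, adjusted p = 0.00805), and by 1.0 against KO 6 h replicate 1 alone. Plk1, a kinase needed for spindle assembly and cell division, stood at 1.15, 0.54 and 0.78 at 24 h, against -0.29, -0.53 and -0.03 at 6 h. It rose by 1.10 (SE 0.171, adjusted p = 0.0115). Cenpa, the histone variant that marks centromeres, had the smallest p of the list, at 0.51, 0.31 and 0.37 against -0.22, -0.21 and -0.24. All 3 arrays at 6 h lay within a few hundredths of each other, and the rise was 0.62 (SE 0.0663, adjusted p = 0.00155).

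Of the cyclins, which switch on the cell cycle kinases, Ccna2 rose by 1.16 (adjusted p = 0.0317) and Ccnb2 by 0.98 (adjusted p = 0.0287). Cdc25b, a phosphatase that activates Cdk1, stood at 0.05, 0.19 and 0.04 at 24 h, against -0.49, -0.65 and -0.55 at 6 h, and rose by 0.66 (SE 0.0862, adjusted p = 0.00592). Its 24 h values were near those of the arrays labelled KO 0 h, where its mean was -0.10. The other members that rose were Foxm1 (0.70), a transcription factor of mitotic genes, the kinases Aurka (0.76) and Aurkb (0.81), Birc5 (0.66), Cdc20 (0.66), Racgap1 (0.92), Kif20a (0.78) and the condensin subunits Ncaph (0.82) and Ncapd2 (0.86). Among members that did not pass, Mki67 changed by 0.28 (adjusted p = 0.834) and Top2a by 0.29 (adjusted p = 0.742). Ttk, a spindle checkpoint kinase, had the lowest change of the list at -0.49 (adjusted p = 0.194).

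In the arrays labelled KO 0 h the list mean was 0.07, -0.05 and 0.05. The 6 h arrays gave -0.39, -0.25 and -0.22, and the 24 h arrays 0.32, 0.20 and -0.02. At 6 h, 47 of the 48 members lay below their 0 h mean, and at 24 h 28 lay above it. The lowest KO 24 h array was thus within the range of the arrays labelled KO 0 h, and the 6 h arrays lay below that range. In WT the list mean at 6 h was -0.28 in replicate 1 and 0.09 and 0.11 in the other arrays. Passing members of the list numbered 4 to 15 when any 1 array was left out, 4 with the number class as a block and 1 without both KO 6 h arrays numbered under 3000, where the median was 0.57.

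Promoters of the mitotic genes are printed because these genes moved together. Many mitotic promoters are known to carry CCAAT boxes, bound by NF-Y, and the element called CHR, bound by a repressor complex of the cell cycle. Both were searched on both strands in the 250 bases before each gene's start (RefSeq, GRCm38.p6). A CCAAT was found in 28 of the 40 list members with a promoter in the table (70.0%) and in 9 of 11 passing members (81.8%), against 34.5% of all 27025 promoters. TTTGAA, the CHR letters used, was found in 14 of 40 (35.0%) and in 4 of 11 (36.4%), against 16.3% of all promoters. CCAAT was also in 65.6% of 32 promoters of the DNA replication list and in 84.0% of 25 of the chaperone list. Among all passing genes, CCAAT was in 45.5% of the promoters of rises and in 43.2% of those of falls. TTTGAA was in 11.6% and 10.2% of them. Neither set the 2 directions apart. A match is a description of letters and no evidence of binding. The promoters shown are those of Cdk1 (chr10:69352913-69353162, minus strand) and Cenpa (chr5:30666636-30666885, plus strand), written 5′ to 3′ toward the start, with CCAAT or its complement and TTTGAA in capitals.
Cdk1: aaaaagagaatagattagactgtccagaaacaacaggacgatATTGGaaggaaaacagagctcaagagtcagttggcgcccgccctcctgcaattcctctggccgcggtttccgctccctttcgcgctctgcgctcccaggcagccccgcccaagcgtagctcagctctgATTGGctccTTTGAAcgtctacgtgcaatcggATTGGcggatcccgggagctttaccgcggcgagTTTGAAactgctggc
Cenpa: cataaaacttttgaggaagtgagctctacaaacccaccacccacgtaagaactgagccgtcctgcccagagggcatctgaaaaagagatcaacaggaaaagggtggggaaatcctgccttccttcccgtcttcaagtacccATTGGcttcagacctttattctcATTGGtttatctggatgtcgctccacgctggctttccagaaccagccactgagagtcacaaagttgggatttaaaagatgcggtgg
Cdk1 held 3 CCAAT and 2 TTTGAA, and TTTGAA lay 71 and 15 bases before the start, and Cenpa held 2 CCAAT, 109 and 86 bases before the start. Cdc25b and Plk1, also among the 4 members of the list with the smallest p, are not printed. They held 1 CCAAT and 0 TTTGAA each, so the printed promoters are the richer ones in these letters.

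The DNA replication list holds enzymes that make deoxynucleotides, the helicase and its loaders, polymerases and factors that put histones on new DNA. Of 38 measured members, 5 rose and 0 fell, with a median of 0.37 in KO and of 0.31 in WT. Tk1, thymidine kinase, stood at 1.06, 1.13 and 0.89 in KO 24 h arrays, against -0.31, -0.01 and -0.40 in KO 6 h arrays. It rose by 1.27 (SE 0.145, adjusted p = 0.0025), by 1.33 against KO 6 h replicate 1 alone, and the WT change was 0.82 (adjusted p = 0.185). Rrm2, a subunit of ribonucleotide reductase, rose by 0.84 (adjusted p = 0.0183) in the row used, while its other row changed by 0.01. Chaf1b, a histone chaperone subunit, rose by 0.79 (adjusted p = 0.0131), the clamp loader subunit Rfc5 by 0.48 (adjusted p = 0.0207) and Gins4, of the replicative helicase, by 0.44. Unlike the mitotic list, 24 of the 38 members were above their 0 h mean at 6 h, and 35 were at 24 h. Passing members numbered 1 to 11 when 1 array was left out, and 1 without both KO 6 h arrays numbered under 3000.

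Genes for histones and their handling stood among the 15 largest rises. Asf1b, a histone chaperone, rose by 1.08 (SE 0.158, adjusted p = 0.00964), with 0.80, 0.82 and 0.76 in KO 24 h arrays against -0.28, -0.15 and -0.43 in KO 6 h arrays. The linker histone gene H1f5 rose by 1.07 (adjusted p = 0.0313), the core histone gene H2ac10 by 1.02 (adjusted p = 0.016) and H2ax, the variant that is phosphorylated at DNA breaks, by 1.01 (adjusted p = 0.019). Histone genes have near-identical copies whose transcripts a row may also read, so the gene behind H1f5 and H2ac10 is uncertain. Cenpn, a centromere protein, rose by 1.0 (adjusted p = 0.00964). The WT changes of these genes were 0.45 for Asf1b, 0.65 for H1f5, 0.88 for H2ac10, 0.75 for H2ax and 0.66 for Cenpn, of which none passed.

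**Figure D2:**
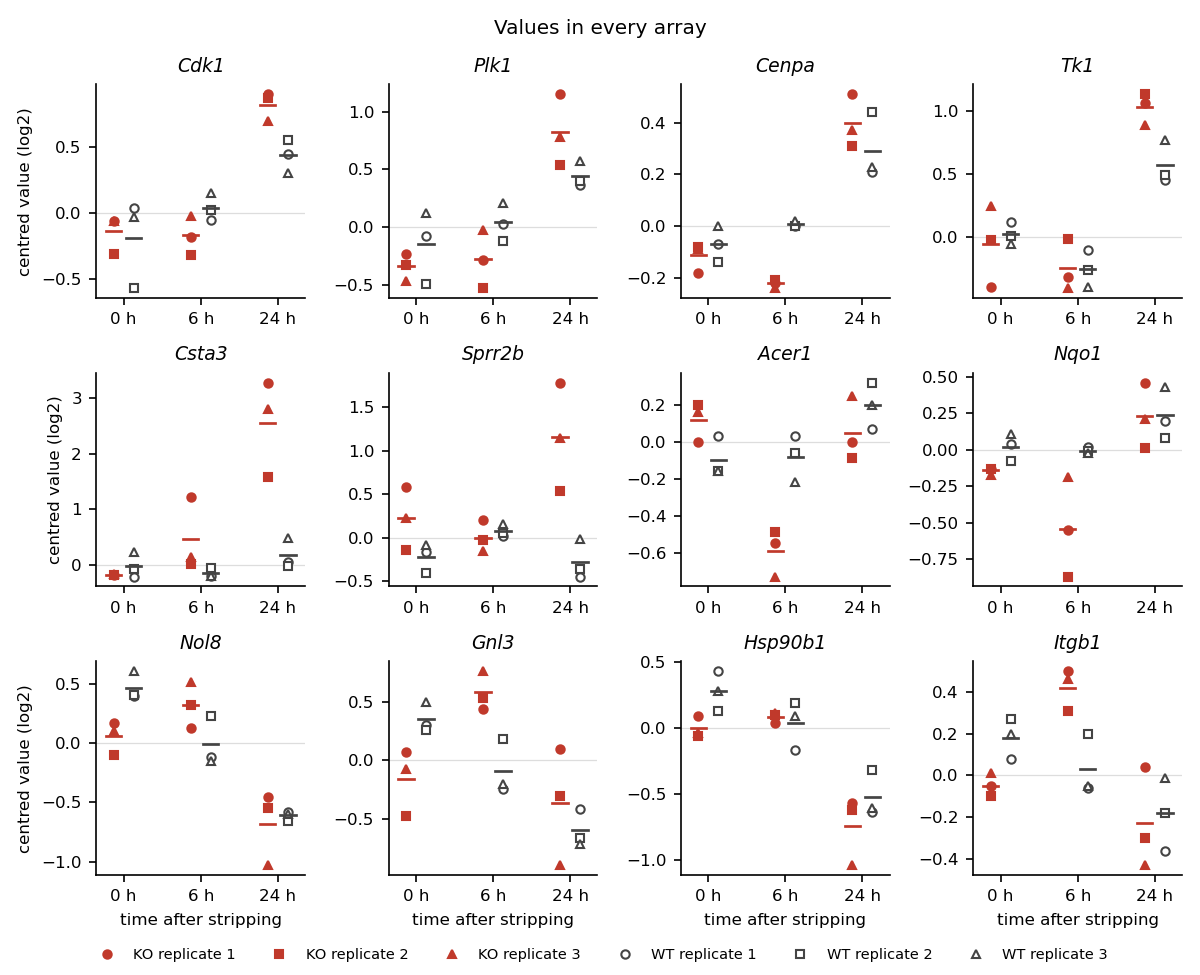
Centred values (log2) of 12 genes in every array at 0, 6 and 24 h, with KO filled and left, WT open and right, a mark for each replicate and a bar at each group mean. The 3 KO 24 h arrays lie above the 3 KO 6 h arrays in the upper 8 panels and below them in Nol8, Gnl3, Hsp90b1 and Itgb1.

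The 2 largest rises that passed were in genes for inhibitors of cysteine proteases. Csta3, a member of the stefin family, stood at 3.28, 1.58 and 2.80 in KO 24 h arrays, against 1.23, 0.01 and 0.14 in KO 6 h arrays. It rose by 2.09 (SE 0.351, adjusted p = 0.0154), a 4.27-fold difference, and by 1.32 against KO 6 h replicate 1, the highest of the 6 h arrays. Stfa2l1, of the same family, stood at 2.66, 1.02 and 1.56 at 24 h, against 0.85, -0.03 and 0.16 at 6 h. It rose by 1.42 (SE 0.296, adjusted p = 0.0319), and by 0.90 against KO 6 h replicate 1 alone. In both genes replicate 1 was the highest array at either time, and the WT changes were 0.33 and 0.12. Stefin genes are near copies of each other, so a row may read several of them.

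Cst6, cystatin M/E of the upper epidermis, stood at 0.31, 0.39 and 0.55 at 24 h, against -0.04, -0.27 and -0.06 at 6 h, and rose by 0.54 (SE 0.124, adjusted p = 0.0484). These 3 were the passing members of 22 measured protease inhibitors, whose median was 0.01. The list did not move as a whole. Stfa3 changed by 1.26 (adjusted p = 0.132) and Serpinb5 by -0.33 (adjusted p = 0.0548). Serpinb2 had the widest difference of any gene examined, -2.59, with -5.60, -0.11 and -1.57 at 24 h against -0.32, 0.55 and 0.27 at 6 h. It did not pass (adjusted p = 0.583), and very low values also stood in 1 KO array at 0 h (-5.86) and 1 WT array at 24 h (-6.40). None of the inhibitors passed with the number class as a block or without both KO 6 h arrays numbered under 3000, where the list median was 0.02.

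Of 28 small proline-rich and late cornified envelope genes, which code for parts of the cross-linked shell of corneocytes, Sprr2b alone rose. It stood at 1.78, 0.54 and 1.14 in KO 24 h arrays, against 0.20, -0.03 and -0.16 in KO 6 h arrays, a rise of 1.15 (SE 0.241, adjusted p = 0.0336). In WT its change was -0.35 (adjusted p = 0.775). The lowest KO 24 h array was still above the highest KO 6 h array. Its relatives Sprr2h and Sprr2e changed by 0.42 (adjusted p = 0.17) and 0.89 (adjusted p = 0.427), and transcripts of this cluster are alike enough to share probes. The list median was -0.04, with 13 members above 0. Against KO 6 h replicate 1 alone the list median was -0.20 and 8 members were above 0. The call for Sprr2b was lost with the number class as a block, and without both KO 6 h arrays numbered under 3000 the list had 0 rises and 1 fall. Against the arrays labelled KO 0 h, 25 of the 28 members were higher at 6 h and 26 at 24 h.

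Among 35 genes of late differentiation, 2 rose and 0 fell, with a median of 0.07. Calml3, a calmodulin-like protein, stood at -0.09, -0.15 and 0.04 in KO 24 h arrays, against -0.54, -0.61 and -0.45 in KO 6 h arrays. It rose by 0.47 (SE 0.0768, adjusted p = 0.0136), and by 0.47 against replicate 1 of KO 6 h alone. Klk5, a protease that cuts the links between corneocytes, rose by 0.62 (SE 0.133, adjusted p = 0.0367). Its inhibitor Spink5 changed by -0.50 (adjusted p = 0.157), Flg, filaggrin, by 0.66 (adjusted p = 0.233) and Tgm3, an envelope cross-linking enzyme, by 0.76 (adjusted p = 0.152). Of the 35, 26 lay below their 0 h mean at 6 h and 19 at 24 h. Sox15, a transcription factor expressed in keratinocytes, was outside the lists and rose by 1.0 (SE 0.195, adjusted p = 0.0238), with 1.02, 0.77 and 0.41 at 24 h against 0.13, -0.23 and -0.70 at 6 h.

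Lipids of the barrier are built from ceramides, cholesterol and fatty acids. Acer1, an alkaline ceramidase of differentiated keratinocytes, stood at 0.00, -0.09 and 0.25 in KO 24 h arrays, against -0.55, -0.49 and -0.73 in KO 6 h arrays. It rose by 0.65 (SE 0.102, adjusted p = 0.0126), and the 3 values at 6 h were the lowest of its 18 arrays. It was the only passing member of 32 barrier lipid genes, whose median was 0.08. Smpd1, an acid sphingomyelinase, changed by 0.38 (adjusted p = 0.0614), with -0.01 in its other row, and Slc27a4, a fatty acid transporter, by 0.50 (adjusted p = 0.0768). Of 19 cholesterol synthesis genes, 2 rose and 0 fell, with a median of 0.20. These were Tm7sf2, a sterol reductase, by 0.47 (SE 0.0693, adjusted p = 0.00964) and Fdps, which makes farnesyl diphosphate, by 0.55 (SE 0.111, adjusted p = 0.028). Against KO 6 h replicate 1 alone the changes were 0.40 for Tm7sf2 and 0.34 for Fdps, and the list median was -0.01.

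Cbr2, a carbonyl reductase, was the row with the smallest p of the comparison. It stood at 0.55, 0.54 and 0.60 in KO 24 h arrays, against -0.51, -0.45 and -0.44 in KO 6 h arrays. The arrays of each time lay within 0.1 of each other, and the times stood far apart. Cbr2 rose by 1.03 (SE 0.105, adjusted p = 0.00155), a 2.04-fold difference, with a WT change of 0.29 (adjusted p = 0.528). Its mean in the arrays labelled KO 0 h was 0.09, between the other times.

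Of 30 targets of NRF2, the factor of oxidative and electrophile stress, 2 rose and 0 fell, with a median of 0.08. Nqo1, a quinone reductase that is a target of both NRF2 and AhR, stood at 0.46, 0.01 and 0.21 in KO 24 h arrays, against -0.55, -0.87 and -0.19 in KO 6 h arrays. It rose by 0.76 (SE 0.142, adjusted p = 0.02) in mice without AhR, and its WT change was 0.24. Pgd, of the pentose phosphate pathway, rose by 0.57 (adjusted p = 0.047). Nqo1 was the only passing member of 10 measured AhR targets, whose median was 0.03. Cyp1a1 and Cyp1b1, the classical induced oxidases, changed by 0.01 (adjusted p = 0.993) and 0.25 (adjusted p = 0.573), while the targets Aldh3a1 and Tiparp changed by 0.55 (adjusted p = 0.1) and -0.56 (adjusted p = 0.301). GCGTG, the core letters bound by AhR, was searched in the same window and on both strands. It was in 43.8% of 121 promoters of genes that rose and in 50.0% of 118 of genes that fell. The share over all 27025 promoters was 28.2%. Whole lists, most of whose members did not pass, had 65.1% (ribosome assembly), 68.0% (chaperones), 50.0% (mitosis) and 40.6% (DNA replication). High shares were thus not particular to passing genes, and a match is no evidence of binding.

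Ribosome assembly genes were among the falls. The nucleolar proteins of this list process ribosomal RNA and build the 2 subunits. Of 47 measured members, 5 fell and 0 rose, with 12 above 0 and a median of -0.19 in KO, and of -0.08 in WT. Gnl3, nucleostemin, stood at 0.10, -0.30 and -0.89 in KO 24 h arrays, against 0.44, 0.53 and 0.76 in KO 6 h arrays. Gnl3 fell by 0.94 (SE 0.205, adjusted p = 0.0415), and by 0.80 against KO 6 h replicate 1 alone, with the lowest value in KO 24 h replicate 3. Noc3l changed by -0.68 (adjusted p = 0.0415), Dkc1, which modifies ribosomal RNA, by -0.66 (adjusted p = 0.0313), Ltv1, a factor of small subunit assembly, by -0.64 (adjusted p = 0.0314) and Wdr75 by -0.57 (adjusted p = 0.0227).

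Members of this list that narrowly missed were Ncl, nucleolin, at -0.70 (adjusted p = 0.0559) and Nop58, a core protein of small nucleolar particles, at -0.82 (adjusted p = 0.0681). In the arrays labelled KO 0 h the list mean was -0.21, -0.18 and -0.13. The 6 h arrays gave 0.53, 0.16 and 0.15, and the 24 h arrays 0.18, 0.08 and -0.15. At 6 h, 46 of the 47 members were above their 0 h mean, and at 24 h 32 were. The list was thus highest in replicate 1 of KO 6 h. Its median was -0.58 against that array alone, where 0 members passed, and 1 passed with the number class as a block. Leaving out 1 array gave 0 to 6 falls, and without KO 6 h replicate 1 the median was -0.05 and 2 members rose.

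Outside that list, the 15 largest falls named further genes for proteins that handle ribosomes or RNA, set together here after their values were seen. Nol8, a nucleolar protein, stood at -0.45, -0.55 and -1.03 in KO 24 h arrays, against 0.13, 0.32 and 0.52 in KO 6 h arrays. It fell by 1.0 (SE 0.143, adjusted p = 0.00925), and its WT change was -0.60 (adjusted p = 0.307). Gtpbp4, a nucleolar GTPase of the large subunit, changed by -0.84 (adjusted p = 0.0164) and Krr1, of the small subunit processome, by -0.84 (adjusted p = 0.0131). Abce1, which splits ribosomes for reuse, changed by -0.85 (adjusted p = 0.0131). Ssb, the La protein that binds the ends of new small RNAs, changed by -0.86 (adjusted p = 0.0462), and Ttc37, of the complex that guides the RNA exosome, by -0.85 (adjusted p = 0.0183).

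Cacybp, a calcyclin-binding protein, had the largest fall that passed. It stood at -0.20, 0.05 and -0.97 in KO 24 h arrays, against 0.53, 0.63 and 0.93 in KO 6 h arrays, a change of -1.07 (SE 0.207, adjusted p = 0.0229). KO 24 h replicate 3 was the lowest of the 6 arrays for Cacybp, Gnl3, Nol8, Ssb and Dld alike. Nucb2, a calcium-binding protein of the secretory path and precursor of nesfatin, stood at -0.04, -0.28 and -0.50 at 24 h, against 0.51, 0.53 and 0.86 at 6 h. It fell by 0.91 (SE 0.154, adjusted p = 0.0164), and in WT it changed by 0.02. Aadacl2fm1, of the arylacetamide deacetylase family, fell by 0.93 in KO (adjusted p = 0.0287) and changed by -0.97 in WT (adjusted p = 0.19). The other large falls were Scfd1 (-0.89), of transport from the endoplasmic reticulum, Aasdhppt (-0.87), which activates acyl carrier proteins, Dld (-0.86), the shared subunit of mitochondrial dehydrogenase complexes, Tspan8 (-0.83), a tetraspanin, and Atad1 (-0.83), which clears misplaced proteins from mitochondria.

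The next list, called the chaperone list, holds chaperones that fold proteins in the endoplasmic reticulum and cytosol. It also names transcription factors, enzymes and protein degradation factors of the same responses. Of 29 measured members of the unfolded protein and heat shock response, 3 fell and 0 rose, 3 were above 0, and the median was -0.27 in KO and -0.14 in WT. Hsp90b1, the Hsp90 of the endoplasmic reticulum, stood at -0.57, -0.62 and -1.04 in KO 24 h arrays, against 0.04, 0.10 and 0.11 in KO 6 h arrays. It fell by 0.83 (SE 0.126, adjusted p = 0.0114), by 0.78 against KO 6 h replicate 1 alone, with a WT change of -0.56 (adjusted p = 0.297). Dnajc3, a cochaperone and inhibitor of the kinase PERK, fell by 0.64 (SE 0.121, adjusted p = 0.0207). Canx, calnexin, fell by 0.55 (SE 0.0933, adjusted p = 0.016). The disulfide isomerase Pdia3 changed by -0.42 (adjusted p = 0.056) and Hspa5, known as BiP, by -0.22 (adjusted p = 0.636). With the number class as a block 0 members passed, and 0 passed without both KO 6 h arrays numbered under 3000, where the median was -0.43.

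The promoters of the 3 chaperones that fell hold the known response element of endoplasmic reticulum stress (ERSE), a CCAAT and a CCACG spaced by 9 bases. The element was looked for after these genes were known to pass. On either strand of the 250 bases before the start it was found in 3 of 3 passing chaperones. It was in 7 of the 25 members of the chaperone list with a promoter (28.0%), against 33 of 27025 promoters (0.122%). Capitals mark the element or its complement in Hsp90b1 (chr10:86705445-86705694, minus strand), Canx (chr11:50325674-50325923, minus strand) and Dnajc3 (chr14:118937682-118937931, plus strand), written 5′ to 3′ toward the start.
Hsp90b1: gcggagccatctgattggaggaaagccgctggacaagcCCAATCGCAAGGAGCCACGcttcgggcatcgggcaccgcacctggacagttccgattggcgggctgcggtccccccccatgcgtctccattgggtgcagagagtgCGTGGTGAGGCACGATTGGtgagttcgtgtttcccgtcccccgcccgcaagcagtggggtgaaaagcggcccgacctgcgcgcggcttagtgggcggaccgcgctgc
Canx: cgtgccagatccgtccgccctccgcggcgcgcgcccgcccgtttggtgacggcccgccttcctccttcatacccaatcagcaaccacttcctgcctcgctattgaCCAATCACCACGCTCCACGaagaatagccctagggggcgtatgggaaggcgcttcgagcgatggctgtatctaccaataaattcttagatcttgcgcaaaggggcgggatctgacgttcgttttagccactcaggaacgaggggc
Dnajc3: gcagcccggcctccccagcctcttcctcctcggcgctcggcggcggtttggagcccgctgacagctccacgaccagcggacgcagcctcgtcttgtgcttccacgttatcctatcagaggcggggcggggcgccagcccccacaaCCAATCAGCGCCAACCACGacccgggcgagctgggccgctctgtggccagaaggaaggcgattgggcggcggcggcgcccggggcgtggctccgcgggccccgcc
Hsp90b1 held 2 copies, 212 and 107 bases before the start, while Canx and Dnajc3 held 1 each, at 145 and 105 bases.

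**Figure D3:**
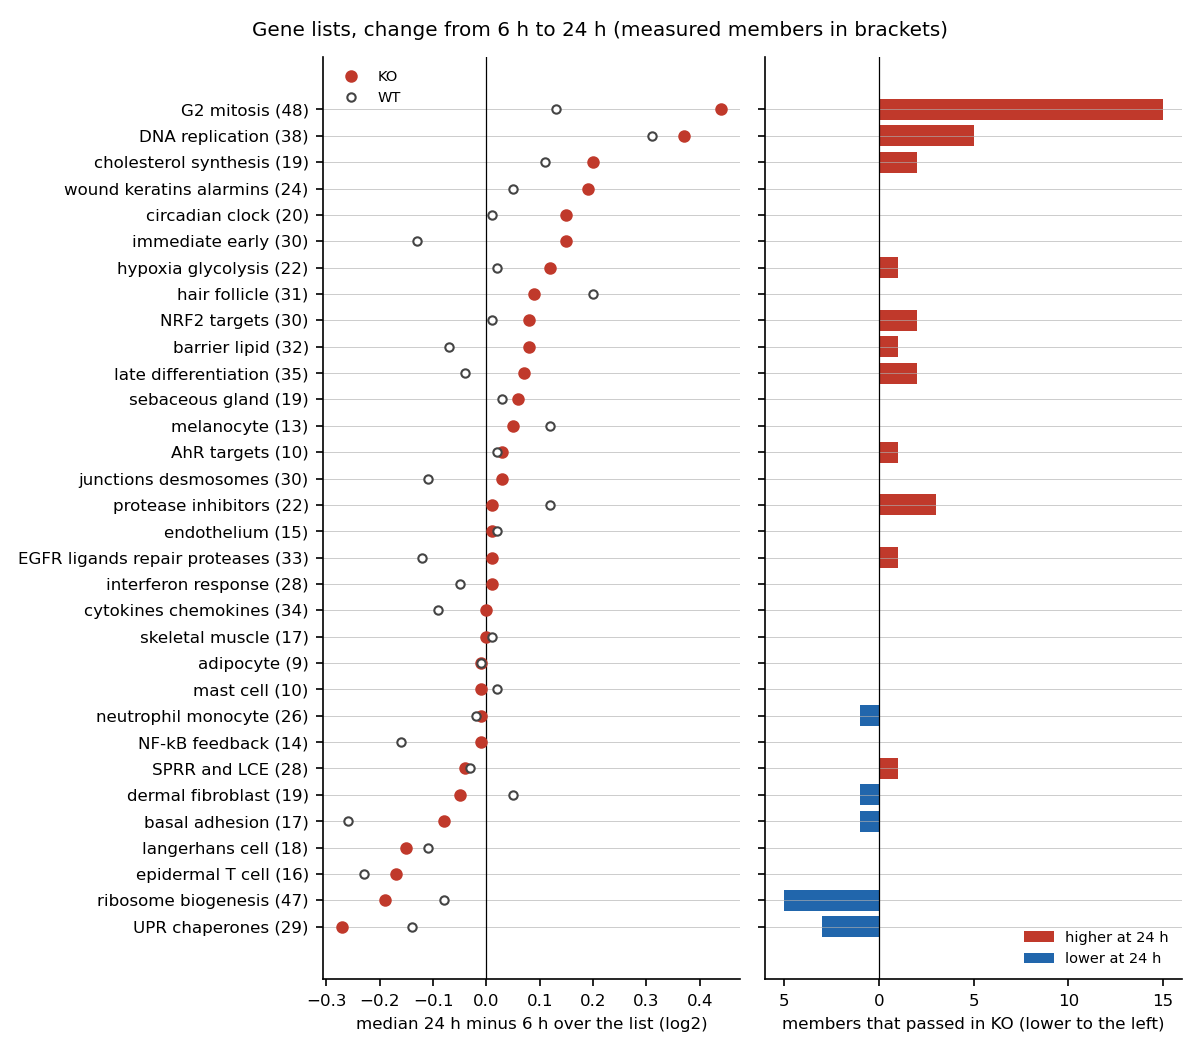
On the left, the median 24 h minus 6 h difference (log2) of each gene list in KO (filled) and WT (open), with the measured members in brackets; on the right, the number of members that passed in KO, lower to the left of 0. The mitotic list has the highest KO median (0.44) and 15 passing rises, and the chaperone list the lowest (-0.27) with 3 passing falls.

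The basal adhesion list and the list of ligands, proteases and matrix genes gave 1 call each (5.88% and 3.03%). Over all 22180 genes the share was 1.28%. Itgb1, the beta chain of the main matrix receptors of basal keratinocytes, stood at 0.04, -0.30 and -0.43 in KO 24 h arrays, against 0.50, 0.31 and 0.46 in KO 6 h arrays. It fell by 0.65 (SE 0.116, adjusted p = 0.0183) and was the only one of 17 basal adhesion genes to pass. Its partners Itga2 and Itga6 changed by -0.51 (adjusted p = 0.118) and -0.35 (adjusted p = 0.199), and the basal keratin Krt14 by 0.22 (adjusted p = 0.439). Tnc, tenascin C of wound matrix, rose by 0.86 (SE 0.194, adjusted p = 0.0475), the only call among 33 ligands of the epidermal growth factor receptor, wound proteases and matrix genes. Among the ligands, Hbegf changed by 0.51 (adjusted p = 0.11). Of 30 junction and desmosome genes 0 passed, and Gjb2, connexin 26, stood at 2.55, 1.02 and 1.89 at 24 h against 1.86, -0.06 and 0.37 at 6 h (change 1.10, adjusted p = 0.203).

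Wound keratins and antimicrobial proteins, by which stressed epidermis is usually recognised, showed 0 calls among 24 members, with 4 at an unadjusted p under 0.05. With 1.28% of all genes passing, 0 calls in a list of such size is near the background. Over all 23521 rows 3252 had such a p (13.8%), 6.88% of rows upwards and 6.95% downwards, and the unadjusted counts of this and the next lists stand beside that background. Their median was 0.19 with 20 above 0, but -0.03 against KO 6 h replicate 1 alone. Krt6b stood at 4.20, 3.43 and 4.18 in KO 24 h arrays, against 3.90, 0.82 and 2.27 in KO 6 h arrays. The 6 h arrays were far apart from each other, and the change of 1.60 did not pass (SE 0.794, adjusted p = 0.397). S100a9, an alarmin subunit, changed by 0.48 (adjusted p = 0.104) and Lcn2, lipocalin 2, by 0.87 (adjusted p = 0.364). In the arrays labelled KO 0 h the list mean was -0.42, -0.61 and -0.52. The 6 h arrays gave 0.91, 0.07 and 0.35, and the 24 h arrays 1.03, 0.54 and 0.78. All arrays of both times thus stood above those labelled KO 0 h, and KO 6 h replicate 1 was within the range of the KO 24 h arrays.

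Early response genes gave no call either, which is near the 1.28% of all genes that passed. Of 30 immediate early genes 0 passed and 9 had an unadjusted p under 0.05, all higher at 24 h. Over all rows 6.88% had such a p upwards. The list median was 0.15. Junb, an AP-1 subunit, stood at -0.22, 0.07 and 0.01 in KO 24 h arrays, against -0.35, -0.53 and -0.48 in KO 6 h arrays (change 0.41, adjusted p = 0.0548). Ier2 changed by 0.65 (adjusted p = 0.0827) and Egr1 by 0.47 (adjusted p = 0.0938). At 6 h, 23 of the 30 lay below their 0 h mean. Of 34 cytokines and chemokines 0 passed and 2 had an unadjusted p under 0.05, with Cxcl1, a neutrophil chemokine, at 0.64 (adjusted p = 0.139) and Il1b at -0.68 (adjusted p = 0.516). Among 14 feedback genes of NF-kB and 28 interferon genes 0 passed as well, with medians of -0.01 and 0.01. Tpi1, triose phosphate isomerase, rose by 0.61 (adjusted p = 0.0366) as the only one of 22 hypoxia and glycolysis genes, whose median was 0.12.

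Markers of other cells of the sheet were set beside these results. Epidermal T cell markers had 0 of 16 passing, a median of -0.17 in KO and of -0.23 in WT, and list means in KO of -0.39, -0.43 and -0.45 at 24 h against -0.27, -0.20 and -0.09 at 6 h. Langerhans cell markers had 0 of 18 passing and a median of -0.15, with means of -0.06, -0.16 and -0.07 at 24 h against 0.10, 0.02 and 0.01 at 6 h. In both lists the means of the 2 times did not overlap. The same held for the hair follicle and fibroblast markers and for several process lists, so it is not particular to these cells. Cd3g, of the T cell receptor complex, changed by -0.87 (adjusted p = 0.211) and Cd207, langerin, by -0.59 (adjusted p = 0.187). Clec7a, a fungal pattern receptor of myeloid cells, was the only one of 26 neutrophil and monocyte genes to fall, by 0.51 (SE 0.0934, adjusted p = 0.0198), with a list median of -0.01.

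Vim, vimentin of mesenchymal and immune cells, fell by 0.51 (SE 0.0961, adjusted p = 0.0207), with -0.38 in its other row, and was the only one of 19 fibroblast genes to pass. The collagen gene Col1a1 changed by -0.05 and the list median was -0.05. In 31 hair follicle, 19 sebaceous gland, 13 melanocyte, 10 mast cell, 15 endothelial, 17 muscle and 9 fat cell markers 0 passed, and their medians lay between -0.01 and 0.09. The part of a changing cell mixture in the other results was not tested.

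The time of day of collection is not given in the labels. Of 20 circadian clock genes 0 passed, 5 had an unadjusted p under 0.05 upwards and 2 downwards, and the median was 0.15. Dbp, an output gene of the clock, stood at 0.27, 0.75 and 0.98 in KO 24 h arrays, against -1.28, 0.41 and -0.13 in KO 6 h arrays (change 1.0, adjusted p = 0.29). Arntl, of the opposite phase, stood at -0.34, -0.46 and -0.78 against 0.43, -0.22 and -0.11 (change -0.56, adjusted p = 0.23). The part of the time of day in the other results was not tested.

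**Figure D4:**
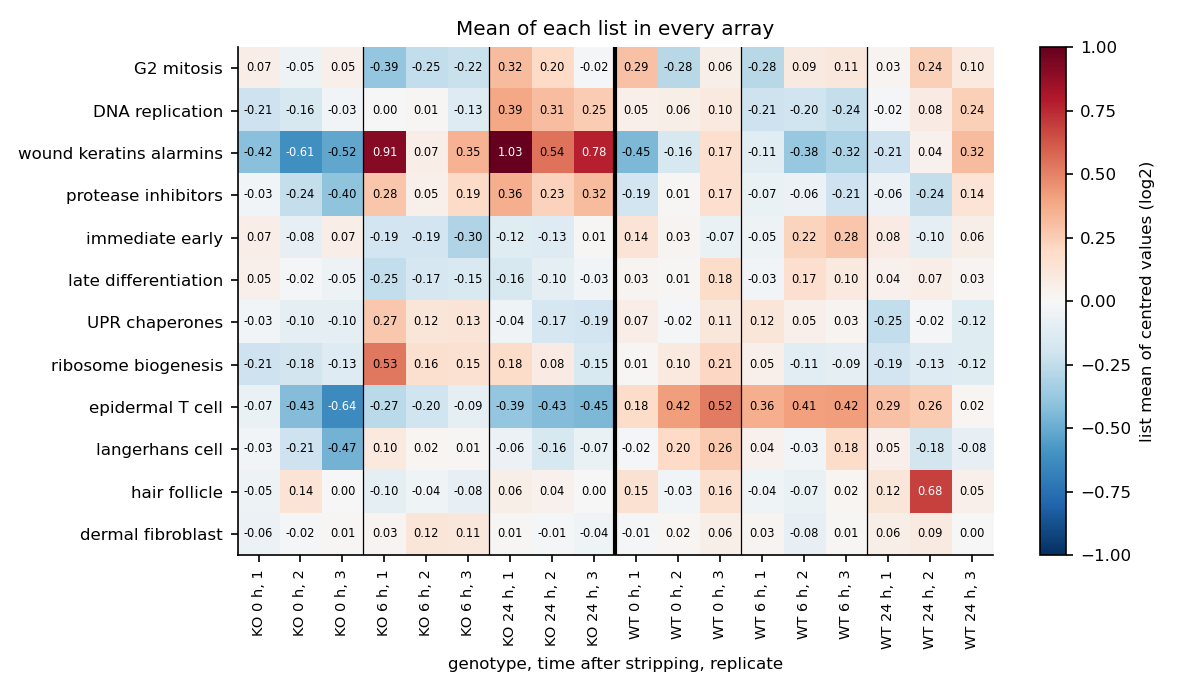
Mean centred value (log2) of the members of 12 lists in every array, in columns by genotype, time and replicate, with the number printed in each cell. The mitotic list runs from -0.02 to 0.32 in the KO 24 h arrays and from -0.39 to -0.22 in the KO 6 h arrays, and the ribosome list is highest in KO 6 h replicate 1 (0.53).

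Whether the KO change differed from the WT change over the same interval was tested directly. No row passed for the difference of the changes, 1575 rows had an unadjusted p under 0.05, and the smallest adjusted p was 0.411 (limma). In WT itself 0 of 23521 rows passed between 24 h and 6 h, 1833 had an unadjusted p under 0.05, and the smallest adjusted p was 0.117. A call in KO and none in WT is therefore no evidence of a difference between genotypes. Of the 147 KO rises, 124 were also above 0 in WT, with a median WT change of 0.21, and of the 145 KO falls, 141 were below 0 in WT, with a median of -0.21. These rows were chosen for large KO changes, so smaller WT changes follow in part from the choice. The classes of the label number were split between 6 h and 24 h alike in both genotypes. The part of this split in the shared signs was not tested.

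**Figure D5:**
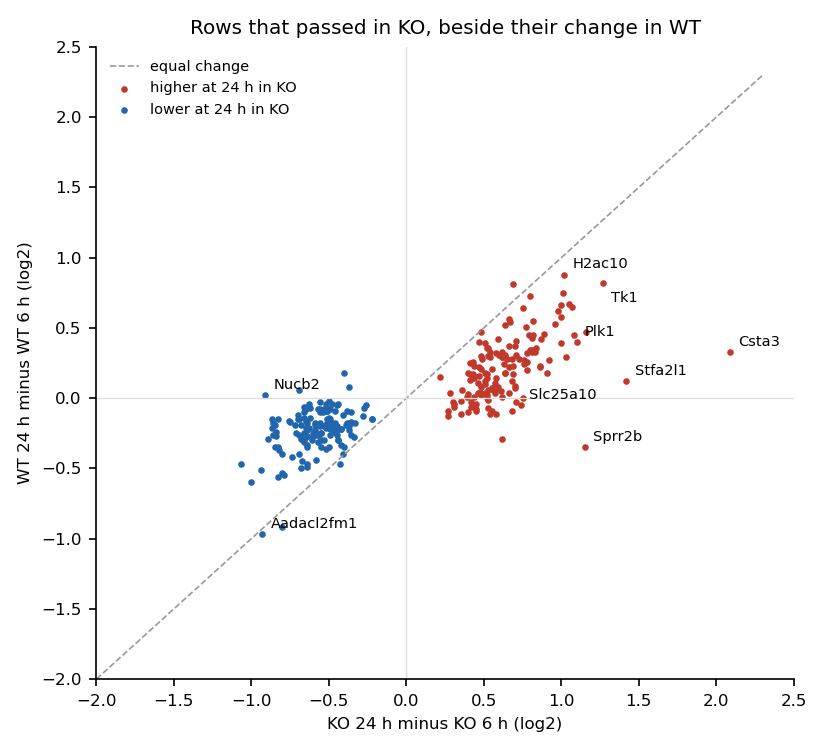
For the 292 rows that passed in KO, the KO 24 h minus KO 6 h difference is plotted across and the WT 24 h minus WT 6 h difference upwards (both log2), with a dashed line of equal change. Most points share the sign of the KO change; Csta3, Stfa2l1 and Sprr2b lie farthest from the line on the right.

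Slc25a10, the mitochondrial dicarboxylate carrier, had the smallest p for the difference among genes higher in KO. It stood at 0.63, 0.63 and 0.60 in KO 24 h arrays, against 0.12, -0.16 and -0.33 in KO 6 h arrays, and rose by 0.74 in KO (SE 0.0902, adjusted p = 0.00382). The WT change was -0.05 and the difference 0.79, which did not pass (adjusted p = 0.411). Grn, progranulin of lysosomes, rose by 0.54 in KO (adjusted p = 0.0131) against -0.11 in WT, and Atg13, of autophagy, changed by 0.18 against -0.21, both with an adjusted p = 0.428 for the difference. On the other side, Zfp9, Tmem210 and Pdhb, a subunit of pyruvate dehydrogenase, changed by -0.33, -0.28 and -0.40 in KO, against 0.31, 0.27 and 0.18 in WT. Their differences of -0.64, -0.56 and -0.58 had adjusted p of 0.428, 0.428 and 0.597. The widest differences among the leading genes, Csta3 at 1.77 (adjusted p = 0.603) and Sprr2b at 1.50 (adjusted p = 0.597), did not pass either.

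Of the 58 genes named by rule that passed in KO, 7 passed whichever of the 6 arrays was left out. Each of the others lost the call in at least 1 case. The 7 were Cbr2, Tk1, Cenpa, Cdc25b, Cdk1, Plk1 and Slc25a10. Over all 18 alternative settings they passed in 14 (Cdc25b, Cdk1, Plk1, Slc25a10) to 17 (Cbr2). With only the groups compared, 0 members of the mitotic and DNA replication lists passed, so Tk1, Cenpa, Cdc25b, Cdk1 and Plk1 lost the call there. The 7 also lost it with only numbers of 3000 or more, where replicate 1 was the only KO 6 h array. Against that array alone Cbr2 changed by 1.07, Tk1 by 1.33, Cenpa by 0.62, Cdc25b by 0.58, Cdk1 by 1.0 and Plk1 by 1.11. Slc25a10 changed by 0.50 to 0.87 over the settings.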

How the data were processed

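Total RNA of epidermal sheets was turned into biotin-labelled cDNA and read on Affymetrix gene arrays, per the labels' protocols. The authors deposited 1 table of log2 values with 33793 rows by 18 arrays and 0 columns of other samples. The base is inferred from the numbers, which run from -6.4 to 4.3; a natural log is possible, and would make every difference larger by 1 factor. Each row's median over the 18 arrays is 0 within 1e-06, so rows were centred before deposit. The sources used here do not give the background correction, the normalisation or the software. Centring removed signal over background, so dim rows could not be filtered and remain in every count.

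Groups came from the sample titles. Rows were named through the platform's gene table: 23521 have 1 symbol (22180 genes, 1082 with several rows), 1814 several and 8458 none. One limma 3.58.1 model (R 4.3.3) with a mean for each of 6 groups was fitted to all 18 arrays (degrees of freedom: 12 residual, 2.76 prior). The contrasts, each with a moderated 2-sided test, were KO 24 h against 6 h, WT 24 h against 6 h, and the difference of these changes. Benjamini-Hochberg adjustment ran over the 23521 rows, with a threshold of 0.05. The script was tested on simulated data. With 3 arrays against 3 an exact 2-sided permutation test cannot go below 0.1, so none was made.

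The comparison, the 32 gene lists (783 of 858 members measured) and the rules were chosen with earlier results of these data known. Named by rule were Ahr, the 15 largest passing changes in each direction without predicted models, up to 4 members of each list with the smallest p, and, as no difference between genotypes passed, the 3 with the smallest p in each direction. A gene with several rows is given by its most variable row (SD) among the 12 arrays outside the comparison. Further list members and passing genes were named after their values were seen. Lists are described by counts and medians without a test. Promoters are from RefSeq's GRCm38.p6 table, 250 bases before the start, with no coordinates from other builds. Alternatives were a second quantile normalisation, arrays set to 1 median, all rows, averaged rows, robust moderation, array weights, only the groups compared, a fold minimum of 1.2, the replicate number or the class of label number as a block, only numbers of 3000 or more, and each array left out. Leaving out both KO 6 h arrays numbered under 3000 was added after seeing the data.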

Additional observations from a re-analysis of the deposited data

Results flagged for a closer look

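The table also has 10272 rows that name no gene or several genes and enter none of the comparisons above. In the fit over all 33793 rows, with the adjustment over all of them, 46 of them passed between KO 24 h and KO 6 h, 35 higher and 11 lower, although no single gene can be named for them.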

How the results depend on the processing

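The count of 292 rows for KO 24 h against KO 6 h moved by over 1.5 times under 6 settings in which no single array was left out. It was 98 after a second quantile normalisation (54 higher, 44 lower), 3 when only the groups compared were fitted, 2 with a fold minimum of 1.2, 36 with the class of the label number as a block (25 higher, 11 lower, 31 of them among the 292) and 1 with only the arrays numbered 3000 or more. Without both KO 6 h arrays numbered under 3000, a setting chosen after seeing the data, it was 24 (4 higher, 20 lower, 4 of them among the 292), and 5 rows then passed for the difference between genotypes. Leaving out 1 array gave 11 to 842 rows in KO, 0 to 4 for the difference and 0 to 19 in WT. The lowest KO count came without KO 6 h replicate 3, and the 19 WT rows passed without WT 6 h replicate 1. With fewer arrays, a group of 1 array is assumed to vary like the others. The replicate number as a block gave 235 rows, 205 of them among the 292. Deviations from the group means in arrays of the same number had correlations of 0.198, 0.116 and -0.081 in KO. In WT they were -0.077, 0.014 and -0.038. Between arrays of different numbers they ran from -0.244 to 0.201 in KO and from -0.107 to 0.136 in WT. So few pairs cannot decide whether arrays that share a number belong together. Under the other settings, array medians set to 0, all rows, averaged rows, robust moderation and array weights, the count was 239 to 431. The causes of these shifts were not tested. The number of arrays and the unknown signal over background limit every count.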

Other observations

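Further passing genes, picked after their values were seen and described without a test, lay outside the lists. Among those lower at 24 h in KO, the large subunit assembly factors Brix1, Gnl2, Rsl1d1 and Rpf1 changed by -0.70, -0.66, -0.65 and -0.56. The RNA-binding proteins Tardbp, Syncrip and Dhx9 changed by -0.68, -0.63 and -0.51, and Pnn, a splicing-associated protein, by -0.69. Srp72, of the signal recognition particle, changed by -0.56, Copb1, a vesicle coat subunit, by -0.58 and Serp1, which protects new membrane proteins, by -0.52. Hif1a, the oxygen-regulated transcription factor, fell by 0.65 (adjusted p = 0.048), and Il13ra1 and Il18r1, chains of cytokine receptors, fell by 0.60 and 0.52.

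Among those higher at 24 h, the lysosomal genes Ctsd, Fuca1 and Man2b2 changed by 0.55, 0.51 and 0.62. Acaa2 and Hadh, enzymes of fatty acid oxidation, rose by 0.58 and 0.48, Acss2, which makes acetyl-CoA, by 0.66, and Srebf1, a regulator of lipid synthesis, by 0.42. Il34, a keratinocyte cytokine that maintains Langerhans cells, rose by 0.68 (adjusted p = 0.019) with a WT change of -0.09, and Il22ra1, the receptor chain for IL-22, by 0.52. Sostdc1, an antagonist of BMP and Wnt signals, rose by 0.91, Lrig1, a marker of a follicle stem cell region, by 0.69, and Notch3 by 0.58.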
